A study of Mus musculus with 4 samples.

Results

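The 35 genes described here encode inflammatory cytokines and chemokines, Toll-like receptors with their co-receptors and adaptors, NOD-like receptors, and the NF-kB transcription factors with their regulators. Each merged ATAC-seq peak was given to a gene when its centre lay inside that gene or nearest to it among 21887 protein-coding genes, up to 100000 bp away. The 35 genes took 273 of 74695 merged peaks in this way, and every one of them had at least 2. The study mapped open chromatin in mouse brain parenchymal macrophages isolated by cell sorting, in 4 libraries that form 2 groups of 2, MDM and YSM. The series title speaks of monocyte-derived macrophages, which is how MDM was read, while YSM is left unexplained by the labels. Both groups carried the genotype label Ms4a3-Ai9, in which Ms4a3 is active in the progenitors of granulocytes and monocytes and Ai9 is a red fluorescent reporter switched on by Cre, and both carried the treatment label DR-3x, which the labels do not explain. The sources used here give no age, strain or number of animals for a library, and do not say which cells carried the reporter.

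Toll-like receptors recognise microbial molecules. CD14 and MD-2 (the product of Ly96) present lipopolysaccharide to the receptor encoded by Tlr4, and the adaptor MyD88, kinases of the IRAK family and the ubiquitin ligase TRAF6 pass the signal on. The inhibitor IκBα (Nfkbia) is then degraded, and dimers of the NF-kB subunits enter the nucleus and bind kB sites at cytokine genes and at genes of their own inhibitors. In brain macrophages this pathway drives the release of interleukin-1, tumour necrosis factor and chemokines after injury or infection.

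The kB sites are shown first, since they are the sequence element bound by the NF-kB subunits to which this pathway leads. RefSeq start windows of GRCm38.p6 (the chromosomes of mm10), from 250 bases before to 50 bases after an annotated start, matched 27 of the 35 genes with 36 windows. Il10, Osm, Tlr4, Cd14, Ly96, Nfkb1, Relb and Nfkbiz had no entry. The NF-kB consensus was found on either strand in the windows of 9 of the 27 genes (33.3%), against 959 of 17465 other protein-coding genes (5.49%). Counted by window, it was in 11 of 36 (30.6%), against 4.77% of other protein-coding windows and 4.51% of all 32851 windows of the table. The 9 genes were Nfkb2, Nlrp3, Il6, Nfkbia, Rel, Tlr2, Tnfaip3, Cxcl1 and Cxcl2. Among the matched genes without the consensus in these windows were Tnf, Il1b, Il12b and Ptgs2. Sequence beyond the windows was not searched, so sites farther off could not be seen. Below, each line runs 5′ to 3′ on the gene's own strand and ends at the base before the start. Capitals mark the consensus matches, and those that overlap by all but 1 base were joined into 1 site. The stretch is 100 bases, except for Nlrp3, where the site lay farther off and 200 bases are shown. For Tlr2 a further 10 bases past the start are included because the site there runs across it.
Nfkb2 (chr19:46304637-46304736, plus strand): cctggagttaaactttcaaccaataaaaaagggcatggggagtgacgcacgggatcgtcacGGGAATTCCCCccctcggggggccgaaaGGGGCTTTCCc
Nlrp3 (chr11:59541369-59541568, plus strand): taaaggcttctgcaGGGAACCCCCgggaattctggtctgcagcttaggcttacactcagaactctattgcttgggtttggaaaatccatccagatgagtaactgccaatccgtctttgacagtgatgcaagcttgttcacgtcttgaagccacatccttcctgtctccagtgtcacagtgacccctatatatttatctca
Il6 (chr5:30013014-30013113, plus strand): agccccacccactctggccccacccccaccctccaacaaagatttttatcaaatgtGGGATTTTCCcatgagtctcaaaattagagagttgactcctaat
Nfkbia (chr12:55492648-55492747, minus strand): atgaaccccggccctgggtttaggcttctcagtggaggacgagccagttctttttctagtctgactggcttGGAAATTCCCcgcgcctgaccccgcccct
Rel (chr11:23770970-23771069, minus strand): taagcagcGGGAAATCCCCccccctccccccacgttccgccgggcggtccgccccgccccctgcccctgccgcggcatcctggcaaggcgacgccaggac
Tlr2 (chr3:83841599-83841708, minus strand): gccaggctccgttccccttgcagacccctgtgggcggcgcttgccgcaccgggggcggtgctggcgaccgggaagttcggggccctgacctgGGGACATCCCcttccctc
Tnfaip3 (chr10:19015411-19015510, minus strand): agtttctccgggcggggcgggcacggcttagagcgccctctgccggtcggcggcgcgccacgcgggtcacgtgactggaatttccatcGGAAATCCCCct
Cxcl1 (chr5:90891145-90891244, plus strand): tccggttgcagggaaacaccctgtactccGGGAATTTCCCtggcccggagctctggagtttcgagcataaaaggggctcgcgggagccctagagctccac
Cxcl2 (chr5:90903799-90903898, plus strand): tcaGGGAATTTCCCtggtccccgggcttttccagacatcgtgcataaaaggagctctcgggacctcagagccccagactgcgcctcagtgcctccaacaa

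The printed stretches were shorter than the start windows, so the capitals cannot show how near a start such matches lie. Among the capitals, the match began 29 bases before the start of Nfkbia, 44 before that of Il6 and 71 before that of Cxcl1. It began 97 bases before the start of Cxcl2 and 186 before that of Nlrp3. Matches left off the print included those that began 125 bases before the start of Tnfaip3 and 173 before that of Tlr2. Cxcl1 and Cxcl2, neighbouring chemokine genes that attract neutrophils, held the same 11 bases, GGGAATTTCCC. Nfkb2, which encodes the precursor of the p52 subunit, held a pair of sites within 39 bases of this start and another, GGGACTTTCC, at chr19:46305705-46305714 near its other starts. Counted once each, the matches made 14 sites, and a merged peak covered 12 of them in full. Whatever their motif, 29 of the 36 windows were overlapped by a merged peak. Among other protein-coding genes, 541 of 1012 windows with the consensus were overlapped, and 10488 of all 21227. Whether sites were covered more often than the windows around them was not tested. The uncovered sites were 1 of 4 at Nfkb2 and 1 of 2 at Tlr2. At 7 of the 14 the covering peak had 4 or more subpeaks. The sites at Cxcl1, Cxcl2, Rel and the first start of Nfkb2 lay under peaks of 3, 2, 1 and 2 subpeaks, so that at least 1 library had no called peak there. A match of letters is not evidence that a factor was bound.

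The other motifs searched differed less from the background, and none of these shares was tested. A relaxed NF-kB motif, which fixes only the outer bases and includes the consensus, was in windows of 18 of the 27 genes (66.7%) and of 59.8% of the other genes. TGANTCA, the AP-1 motif, was in 6 (22.2% against 8.10%), TTNNGNAA of C/EBP factors in 15 (55.6% against 41.3%), GAGGAA of PU.1 in 11 (40.7% against 30.5%) and an interferon-response (ISRE-like) motif in 2 (7.41% against 3.93%). Median GC content was 54.0% in the 36 windows and 56.3% in the other windows.

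Most of these genes had open chromatin at their start. The files hold no values per library, so this and the following comparisons with other genes are counts without a test. A merged peak overlapped a start window in 23 of the 27 matched genes (85.2%), against 52.7% of the other protein-coding genes. In 21 (77.8% against 48.8%) the peak had 4 or more subpeaks. These backgrounds include genes without any assigned peak. All 35 genes had one, against 69.7% of the 21852 others. A subpeak is a peak called in a library before HOMER combined overlapping calls, so at most 3 subpeaks mean that at least 1 of the 4 libraries had no call, while 4 or more allow a call in each. The 4 genes with no peak over a start window were Il1b, Il12b, Tlr6 and Nlrc3. With all 35 genes and either gene end, 29 (82.9%) had a peak of 4 or more subpeaks within 1000 bp of an end of their own, against 65.3% of the 15223 other genes with a merged peak. Of the remaining 6, Il10 and Cxcl1 had end peaks with fewer calls, 2 and 3 subpeaks, and Il1b, Il1rn, Nfkb2 and Nlrc3 had none. Il1rn and Nfkb2 had peaks at annotated starts inside the gene, 6221 and 4669 bp from the nearest gene end, of 4 and 5 subpeaks.

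These genes held many peaks for their size. The median was 6 merged peaks per gene (range 2 to 25), against 2 for the other protein-coding genes and 3 for those with any peak. The stretch of chromosome for which a gene was the nearest had a median of 51.5 kb here and 48.5 kb for other genes with a peak, and the density was 14.0 and 7.09 peaks per 100 kb. The genes themselves were shorter, with a median of 11407 bp against 22930 bp. At least 10 peaks were held by 12 of 35 genes (34.3%) and 11.6% of other genes with a peak. In 28 of 35 (80.0%), 3 or more peak centres fell within 10000 bp of each other, against 35.8%. Neighbouring peaks can be pieces of 1 open region. With peaks less than 1000 bp apart joined, the 273 became 208 and the median gene held 5, against 1 for the other genes.

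**Figure D1:**
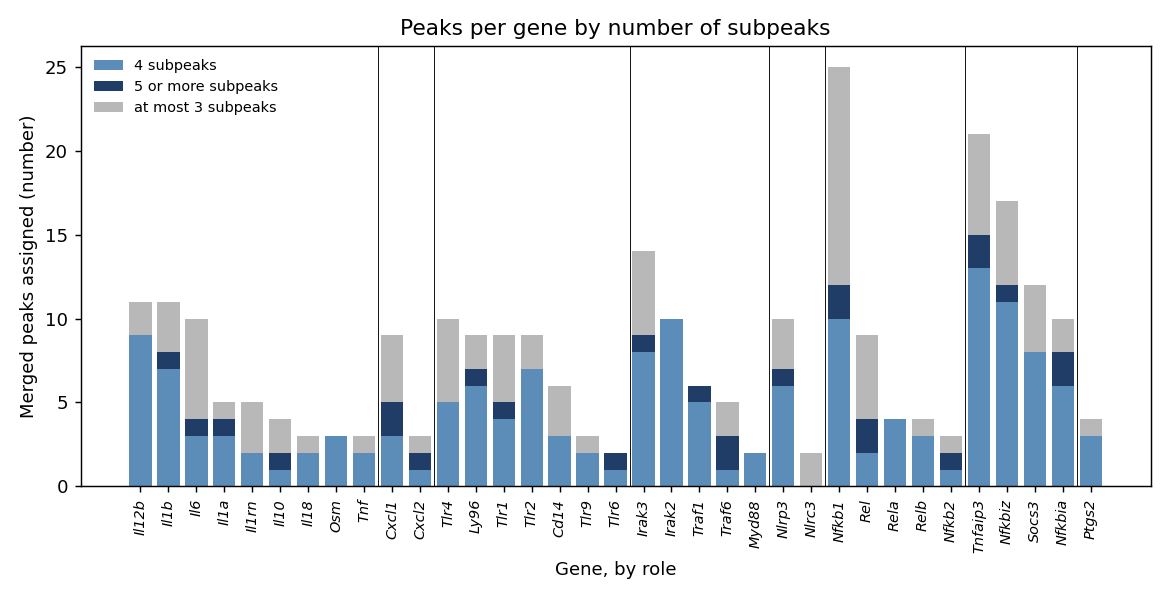
Number of merged peaks assigned to each of the 35 genes (vertical axis), ordered by role from cytokines on the left to the enzyme gene Ptgs2 on the right, with colours for the number of subpeaks. Nfkb1 (25), Tnfaip3 (21) and Nfkbiz (17) stand highest and Nlrc3, Tlr6 and Myd88 (2 each) lowest.

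The peaks lay outside genes more than the other merged peaks did. Of 273, 146 (53.5%, exact 95% binomial interval 47.4 to 59.5) were outside genes and away from their ends, against 32.6% of the others. Inside a gene were 72 (26.4%, 21.2 to 32.0) against 45.8%, and within 1000 bp of a gene end 55 (20.1%, 15.6 to 25.4) against 21.5%. These intervals treat peaks as independent, which neighbours are not, and cover counting error only. The genes were shorter than other genes with a peak, in stretches of similar length. Medians were 11407 bp in 51.5 kb, against 22930 bp in 48.5 kb. The part of gene length in the outside and inside shares was not tested. All 55 end peaks were at an end of the gene they were assigned to. Among the 40 of them at genes with a matched start, 35 were within 1000 bp of it and 5 at the other end. Of 195 peaks of the 27 matched genes, 41 were within 1000 bp of a start, 70 farther upstream and 84 farther downstream, and 117 lay beyond 10000 bp. With genes of every annotated kind, non-coding ones included, the outside share was 38.1%, against 23.9% for other peaks. The other peaks in these shares include those beyond 100000 bp from any gene, which the assignment could not give to the 35 genes. Among peaks with an assigned gene, 38.5% here and 63.0% of the others were centred inside it, its ends included.

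Peaks with at most 3 subpeaks, which must lack a call in some library, made up a smaller share here. They numbered 91 (33.3%, 27.8 to 39.3), against 42.3% of the other merged peaks, and exactly 4 subpeaks were found in 157 (57.5% against 46.4%). Split by position, 4 or more subpeaks were found in 44 of 55 end peaks (80.0% against 73.8%), 38 of 72 inside genes (52.8% against 52.7%) and 100 of 146 outside (68.5% against 54.1%). Widths hardly differed, with a median of 235 bp against 236 bp. The subpeak number follows from accessibility and from depth, and library depth was not analysed here.

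**Figure D2:**
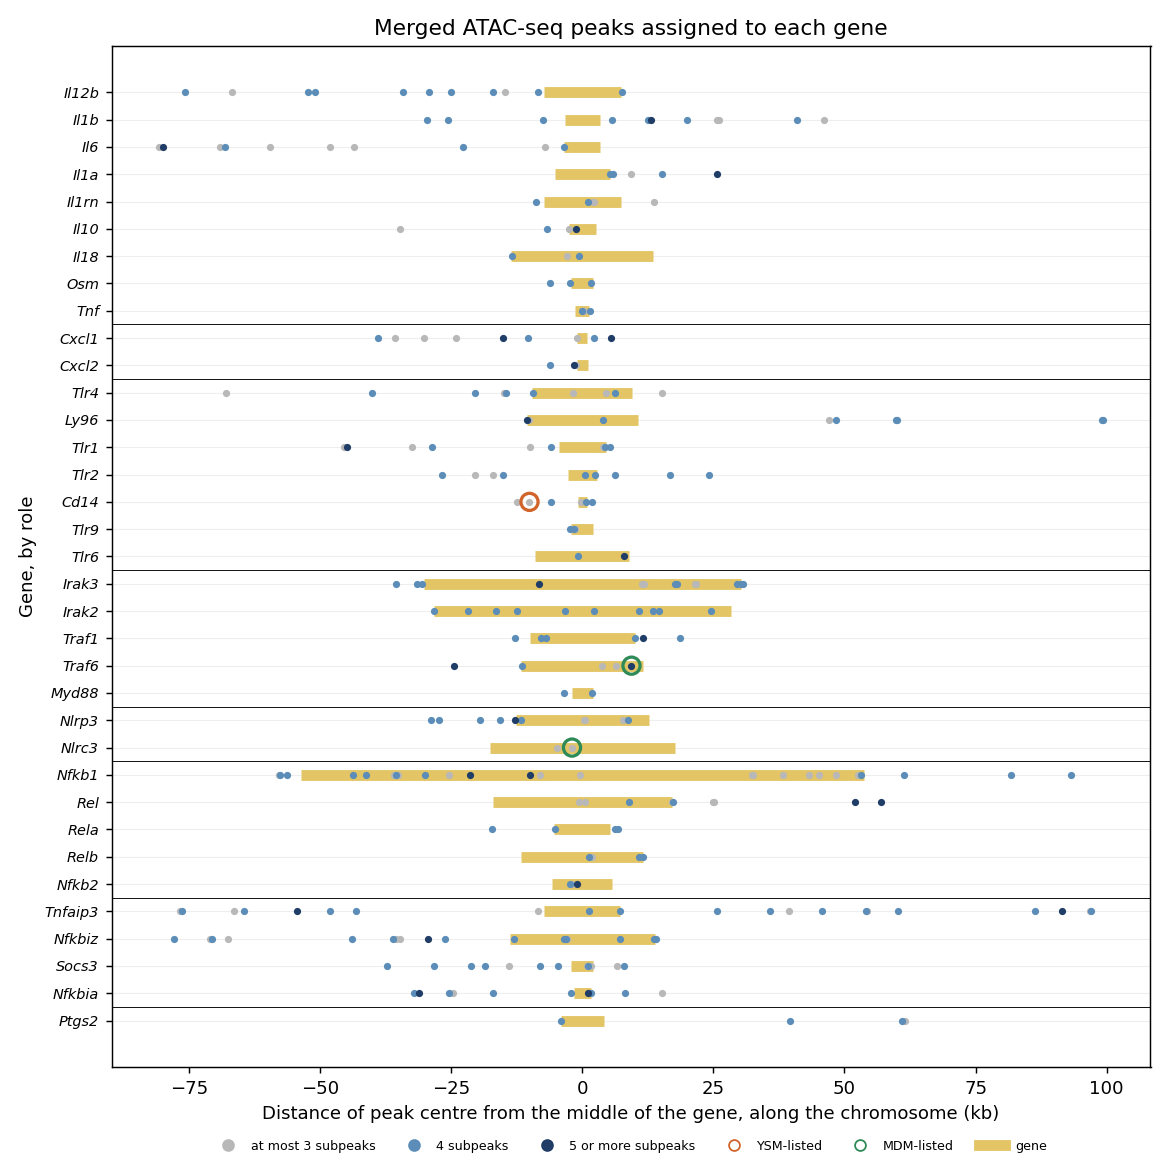
Each dot is a merged peak of the gene named on the vertical axis, placed by the distance in kb of its centre from the middle of the gene along the chromosome. Yellow bars are the genes, dot colours give the subpeak number, and rings mark the peaks in the authors' differential lists (1 at Cd14, 1 at Nlrc3 and 1 at Traf6).

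Among the 9 cytokine genes, 38 of 55 peaks (69.1%) lay outside genes. Il1b, which encodes interleukin-1 beta (chr2:129364569-129371164), had 11 peaks, none inside it and none within 1000 bp of its ends. The nearest, of 4 subpeaks, was centred 2344 bp upstream of its start, and the one with most calls (chr2:129380712-129381179, 7 subpeaks, 468 bp wide) 9806 bp upstream. Il1a, the gene of interleukin-1 alpha, lies 54382 bases away, and the pair held 16 peaks. Unlike Il1b, Il1a had a peak of 4 subpeaks close to its start, centred 170 bp upstream, and its largest (chr2:129330346-129330847, 6 subpeaks) lay 20624 bp upstream, between the genes.

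Il6, the gene of interleukin-6 (chr5:30013114-30019975), had all 10 peaks on its upstream side. It was the nearest gene over 116.5 kb, and with a peak 77304 bp upstream, most of that stretch lay upstream. With non-coding genes included, no peak was assigned to Il6. The start peak of 4 subpeaks was centred 13 bp before the start and covered the kB site shown above. Of the other 9, 6 had at most 2 subpeaks, and the highest number, 5, was at a peak 76503 bp upstream. Il12b, which encodes a subunit shared by interleukins 12 and 23 (chr11:44400063-44414677), also had 10 of 11 peaks upstream, from 1040 to 68506 bp, and 9 of its 11 peaks had exactly 4 subpeaks. No peak overlapped its start window.

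Tnf, the tumour necrosis factor gene, is flanked so closely by other genes that it was nearest for only 5 kb, and it held 3 peaks, 1 of them 128 bp before its start. Il10, the gene of the anti-inflammatory interleukin-10 (chr1:131019845-131024970), had 4, with 6 subpeaks inside the gene at chr1:131020891-131021375 and 2 at the gene end. Il18, Il1rn (the interleukin-1 receptor antagonist) and Osm (oncostatin M) had 3, 5 and 3. All 3 Osm peaks had 4 subpeaks.

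The chemokine genes Cxcl1 and Cxcl2 are 10777 bases apart on chromosome 5 and held 12 peaks, none inside either gene. The peak that covered the kB site of each gene ended short of the start and had few calls, 3 at Cxcl1 (chr5:90890993-90891212) and 2 at Cxcl2 (chr5:90903656-90903879). Peaks with more lay nearby. At Cxcl1 these were 8 subpeaks 14219 bp upstream (chr5:90876788-90877265) and 6 subpeaks at chr5:90897390-90897832, between the genes, and at Cxcl2 5 subpeaks 543 bp upstream.

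All 7 receptor and co-receptor genes had an end peak of 4 or more subpeaks. Tlr4 (chr4:66827551-66846581) had 10 peaks over the broadest territory, 219.5 kb, of which 5 had at most 3 subpeaks. Tlr1 and Tlr2, whose products act as a pair on bacterial lipopeptides, had 9 each. Tlr6, the neighbour of Tlr1 at 19491 bases, had 2, of 4 and 7 subpeaks, the larger (chr5:64969863-64970246) 888 bp from the gene's higher coordinate and 10006 bp upstream of the nearest start in the table. Tlr9, which senses unmethylated DNA, had 3 peaks, all within 1000 bp of its start. Ly96 had 9, with 6 subpeaks at one gene end (chr1:16688356-16688645) and a pair of 4 subpeaks each 88457 and 88788 bp away. Cd14 had 6 and is taken up with the differential peaks.

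Of 37 peaks of adaptor and kinase genes, 21 lay inside genes, 9 at gene ends and 7 outside. Most of the 21 were in the long genes Irak2 (9) and Irak3 (7), and Myd88 had 0 of them. Irak2, a kinase gene of the pathway (chr6:113638467-113695026), had 10 peaks spread along its length, and every one had exactly 4 subpeaks. Irak3, which encodes a kinase-like inhibitor of Toll-like receptor signalling in macrophages, had 14, with 5 at gene ends and 6 within a 10000 bp stretch. Traf1, a TNF receptor-associated factor gene, held the peak with most calls of all 273 (chr2:34963103-34963808, 10 subpeaks, 706 bp wide), 1683 bp upstream of its start. Myd88 had 2 peaks, both of 4 subpeaks, and Traf6 had 5.

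The NF-kB subunit genes ranged from 3 to 25 peaks. Nfkb1, the gene of the p50 precursor (chr3:135584655-135691969), is the longest of the 35 and held 25, of which 18 were inside it and 13 had at most 3 subpeaks. Rel, which encodes c-Rel, had 9, and its most-called peaks lay far upstream, at 39938 bp (chr11:23810683-23811131, 7 subpeaks) and 34975 bp (5 subpeaks). Rela, the gene of p65, and Relb had 4 each, and all those of Rela had 4 subpeaks. Nfkb2 had 3, all inside the gene.

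Regulator genes had the most peaks for their number, 60 over 4 genes, and 45 of them lay outside genes. Tnfaip3 was the nearest gene over 186.5 kb and Nfkbiz over 128.5 kb. The density was 11.3 peaks per 100 kb at Tnfaip3, 13.2 at Nfkbiz, 13.3 at Nfkbia and 20.5 at Socs3. Its median over the 35 genes was 14.0. Tnfaip3, which encodes the ubiquitin-editing inhibitor A20 (chr10:19000910-19015410), had 21. Of these, 19 lay outside genes and away from their ends, from 89861 bp upstream to 80482 bp downstream of the nearest Tnfaip3 start. The peak with most calls (chr10:19099446-19099974, 7 subpeaks) was 84300 bp upstream. Nfkbiz, the gene of an inducible nuclear IκB protein, had 17 peaks. Of these, 10 lay outside genes and away from their ends, all 10 on the side of its lower coordinate. Its 128.5 kb took in the gene, 27580 bp long, and the full 100000 bp on that side. The assignment thus left almost no room for peaks on the other side. The largest peak (chr16:55795570-55796044) had 6 subpeaks. Nfkbia had 10, with 6 subpeaks inside the gene 602 bp past its start and 4 over the start itself, where the kB site lies. Socs3, a feedback inhibitor of cytokine receptors, had 12, 8 of them of exactly 4 subpeaks. Ptgs2, the gene of the prostaglandin-forming enzyme COX-2, had 4 peaks over 177.5 kb, the lowest density of the 35 at 2.25 per 100 kb.

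Of the 35 genes, 32 held no peak in either differential list. The authors' deposited lists of peaks, which their names tie to DESeq2, hold 1104 peaks for YSM (1.48% of the merged peaks) and 108 for MDM (0.145%). Of the 273 peaks, 1 was YSM-listed (0.366%, exact 95% interval 0.00927 to 2.02) and 2 were MDM-listed (0.733%, 0.0888 to 2.62), and both intervals include the share over all merged peaks. Counted by gene, 1 of 35 (2.86%) held a YSM-listed peak against 4.29% of the other genes with a peak, and 2 (5.71%) an MDM-listed one against 0.526%. So few peaks cannot show a difference in either direction, and the lists give no fold change, p-value or value per library to weigh.

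The YSM-listed peak was at Cd14 (chr18:36725064-36726815), the lipopolysaccharide co-receptor gene. It spanned chr18:36715766-36715995, 9184 bp outside the gene, and had 2 subpeaks, so at least 2 of the 4 libraries had no call there. The 5 other Cd14 peaks, with 2 to 4 subpeaks, were in neither list, among them both of 4 subpeaks near the gene's higher coordinate. Cd14 was the nearest protein-coding gene, ahead of Tmco6 at 19139 bp. With non-coding genes included, this peak was no longer assigned to Cd14.

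The MDM-listed peaks were at Traf6 and Nlrc3, both inside the gene. That of Traf6 (chr2:101699187-101699684, 498 bp wide) had 7 subpeaks, the most of the gene's 5 peaks, and lay 21015 bp past the start and 2233 bp from the far end. The start peak of Traf6 (4 subpeaks) was in neither list. Nlrc3 encodes a NOD-like receptor known as a brake on Toll-like receptor signalling. Its listed peak (chr16:3959224-3959695, 472 bp wide, 3 subpeaks) was 1 of 2 in the gene, both of 3 subpeaks and 17173 and 19984 bp past the start, and no peak lay at its start. Among peaks with at least 4 subpeaks, Traf6 alone of the 35 genes had a listed one.

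**Figure D3:**
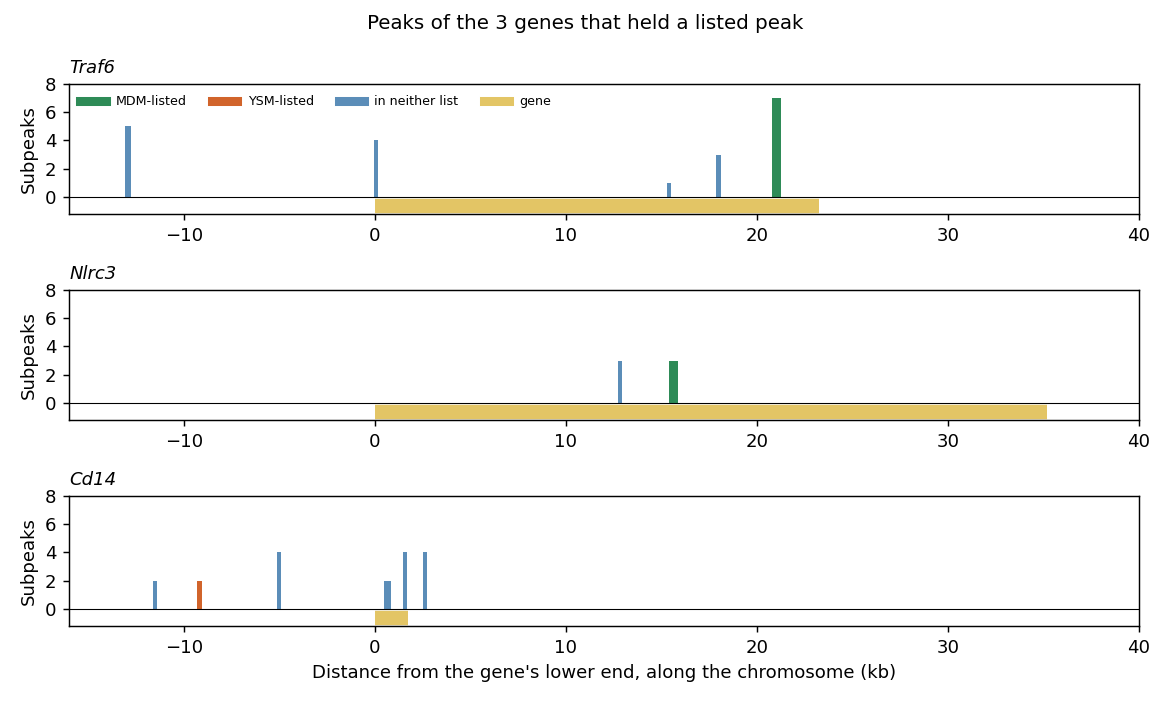
Peaks of Traf6, Nlrc3 and Cd14 by distance in kb from the gene's lower coordinate (horizontal axis) and number of subpeaks (bar height), with the gene as a yellow bar. The MDM-listed peaks (green) have 7 and 3 subpeaks and lie inside the gene, and the YSM-listed peak (orange) has 2 and lies outside Cd14.

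Listed peaks of neighbouring genes came within 100000 bp of a few more members. A YSM-listed peak lay that close to 4 of 35 genes (11.4%), against 11.6% of the other genes with a peak. Besides Cd14 these were Tlr9 (9431 bp, a peak inside Alas1), Il10 (27752 bp, a peak 978 bp from Mapkapk2) and Socs3 (45347 and 48756 bp, both inside Pgs1). An MDM-listed peak did for 3 of 34 genes (8.82% against 1.62%), Traf6, Nlrc3 and Relb (54508 bp). Tnf was left out because chromosome 17 has no MDM-listed peak.

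The other 76 genes of the pathway, among them further Toll-like receptors, IRAK and IKK kinases, inflammasome genes and cytokine receptors, are given by counts. Of these, 75 had merged peaks, 511 in all with a median of 5.5 per gene, against 6 for the 35 genes. An end peak of 4 or more subpeaks was held by 62 of the 76. It was held by 82.9% of the 35 genes and by 65.3% of other genes with a merged peak. The 76 genes did not stand clearly apart from the 35 in either count. Their gene-end share was 21.1% and their share with at most 3 subpeaks 38.2%. They held 1 YSM-listed peak (0.196%), inside Ikbke, a gene of an IKK-related kinase (chr1:131275222-131275436, 2 subpeaks), and 0 MDM-listed ones.

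Macrophage marker genes checked the label of the cells. Of 8 (Spi1, Csf1r, Adgre1, Itgam, Cd68, Ptprc, Fcgr1 and Mertk), 7 had an end peak of 4 or more subpeaks, the exception being Csf1r. Of 24 markers of neurons, astrocytes, oligodendrocytes, endothelial cells, lymphocytes and neutrophils, 6 did. These were 2 of 4 astrocyte, 2 of 4 oligodendrocyte, 1 of 4 neuron and 1 of 4 endothelial genes, and no lymphocyte or neutrophil gene. Among protein-coding genes outside the 35, 45.5% did, and 65.3% of those with a merged peak. The 4 neutrophil genes had 0 peaks. Those 24 genes held 92 peaks, of which 2, at the myelin genes Mog and Mbp, were YSM-listed. That made 2 of 26 peaks of oligodendrocyte genes (7.69%), against 1.48% of all merged peaks. The part of these genes in the Cd14 result was not tested.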

How the data were processed

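ATAC-seq libraries of sorted brain parenchymal macrophages were processed by the authors with Trimmomatic 0.39, Bowtie2 2.2.5, Picard and HOMER on mm10, per the submitters' processing notes. Peaks of the 4 libraries were merged with HOMER mergePeaks, per the file headers. No source used here gives the peak-calling settings, any Tn5 shift or the library depth. BED files, as deposited, carry a score column that is 1 in every merged peak and was not used, and no values per library, so no test over samples was possible and none was run. The differential lists were taken from the authors' deposited files; their thresholds are unknown here. Subpeak numbers came from the peak names.

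Peaks were assigned with Python 3.11.15 and pandas 2.3.3 to the RefSeq gene table of GRCm38.p6. Where genes overlapped, the one with the nearest end was taken. That table gives no exons, so exonic, intronic and UTR positions were not told apart. Coordinates are 1-based. Distances run from the peak's centre, and start windows were called open with 1 bp of overlap. The assignment and the motif search were tested on simulated data. Described in full were genes with a listed peak, the 8 with most peaks and the 10 with the most-called peaks. Start sequences of up to 8 genes were to be shown, and Cxcl2 was added beside Cxcl1 after its sequence was seen. The genes and lists were chosen with earlier results of these data known. Alternatives changed the assignment, the gene kinds, the subpeak minimum, the joining of neighbours, the edge distance and the list overlap.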

Additional observations from a re-analysis of the deposited data

How the results depend on the processing

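Of 81 values of 12 quantities under 9 alternatives, 63 stayed close to the first value and 18 moved. A count or median was called close within 1.5 times the first value, and a share within its exact 95% binomial interval. With every protein-coding gene within 50000 bp, the peaks numbered 458 and the median per gene was 13. The edge, inside and outside shares were then 27.3%, 33.6% and 39.1%, and 5 peaks were YSM-listed. With genes of every annotated kind, Il6 was the 1 gene without a peak, the shares were 29.6%, 32.3% and 38.1%, and 0 peaks were YSM-listed. With at least 4 subpeaks, 1 gene (Nlrc3) had no peak, 20.9% were inside genes, and 0 YSM-listed and 1 MDM-listed peaks remained. The share with at most 3 subpeaks was 21.9% when single-call peaks were left out (27.6% for other peaks) and 23.1% with neighbours joined (33.2%). The edge share was 13.9% at 500 bp (16.8%). In each of these settings the outside share was above, and the inside share below, that of the other merged peaks. The edge share, first 20.1% against 21.5%, changed direction with every gene within 50000 bp (27.3% against 21.5%) and with every gene kind (29.6% against 27.1%). The cause of these moves was not tested. The share with at most 3 subpeaks has no value among peaks of at least 4. Leaving out a library was not run because no file used here gives values per library. No paired analysis was possible because the files carry no values per library.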

Other observations

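The distance limit cut through long peak series at 2 of the regulator genes. Beyond 100000 bp, 16 more merged peaks had one of the 35 genes as their nearest protein-coding gene, and all belonged to Nfkbiz or Tnfaip3. The first lay 101649 bp from Tnfaip3 (chr10:19116941-19117178, 4 subpeaks) and the last 221669 bp from Nfkbiz (chr16:55589593-55589819, 3 subpeaks). None of the 16 was in a differential list. The farthest peak within the limit was 89861 bp from Tnfaip3, with 4 subpeaks.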
